A study of Mus musculus with 6 samples.

Results

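Testis retrogenes are intronless copies of other genes that are transcribed in male germ cells, and 5 of them are described here beside the X-linked parent genes they were copied from. The pairs are Pgk2 and Pgk1, Pdha2 and Pdha1, Rpl10l and Rpl10, Rpl39l and Rpl39, and Cetn1 and Cetn2, given as retrogene and parent. The 10 genes were chosen by name and were all among the 25771 measured genes. Their levels come from single-cell RNA sequencing of testis from adult C57BL6 mice, with 3 NONO deltaER libraries and 3 NONO libraries. The testes were digested with enzymes, and 10x Genomics 3′ v2 chemistry counted each captured transcript by a unique molecular identifier (UMI) near its 3′ end. NONO is an X-linked nuclear protein that binds RNA and forms part of paraspeckles. The alteration behind the name deltaER was not described in the labels. Cells are marked KI or WT in the deposited annotation, which were read as NONO deltaER and NONO. If that reading were wrong, every direction below would turn. Libraries TD, TE and TF are then NONO deltaER, and TA, TB and TC are NONO. No label ties a library to its own mouse. The p-values below therefore speak of library-to-library spread, part of which may be technical.

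A retrogene arises when a spliced mRNA is copied back into DNA and inserted elsewhere in the genome, usually without introns and without the promoter of its parent. In male meiosis the unpaired X and Y chromosomes are gathered into the sex body and their transcription is shut down from the pachytene stage. Autosomal retrocopies of X-linked housekeeping genes are known to stand in for their parents in these cells. Phosphoglycerate kinase (Pgk1, Pgk2) makes ATP in the lower part of glycolysis, and sperm depend on Pgk2 for normal motility. Pdha1 and Pdha2 encode the E1 alpha subunit of pyruvate dehydrogenase, which links glycolysis to the citric acid cycle. Rpl10, Rpl10l, Rpl39 and Rpl39l encode proteins of the large ribosomal subunit, and male mice without Rpl10l are sterile. Centrins are calcium-binding proteins of centrioles and cilia.

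The deposited table assigned 46495 cells to 17 classes, of which 12 are germ cell classes. Libraries held 81042216 to 110018960 UMI and 6261 to 8909 cells. Of 45836 distinct barcodes, 650 occurred in more than 1 library. Class names were used as labels: the fixed undifferentiated spermatogonia markers summed highest in the class named Undifferentiated SG, and the early spermatocyte markers in Preleptotene SC. Sertoli, Leydig, myoid and macrophage markers each summed highest in the class of that name. The differentiating spermatogonia markers and the pachytene and diplotene markers summed highest in Round ST(Step 1-2), and the elongating spermatid markers in Round ST(Step 7-8), so these classes are given by name only. The class named Unknown had the highest sum of interstitial fibroblast-like markers and is counted here with the somatic classes. Nono itself was at 5.01, 5.27 and 5.15 CPM (counts per 1e6 UMI of the summed cells) in NONO deltaER libraries TD, TE and TF, against 5.91, 4.96 and 4.03 CPM in NONO libraries TA, TB and TC, so the groups overlapped and its level does not check the labels.

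All 5 parents lie on the X chromosome and all 5 retrogenes on autosomes (GENCODE annotation, mm10, 1-based). Pgk1 has 11 exons at chrX:106187100-106203699, and Pgk2 has 1 exon at chr17:40207015-40208640. Pdha1 has 11 exons at chrX:160122209-160138413, and Pdha2 has 1 exon at chr3:141210004-141212355. Rpl10 has 6 exons at chrX:74270812-74273135, and Rpl10l has 1 exon at chr12:66283379-66284401. Rpl39 has 3 exons at chrX:37082520-37085402, and Rpl39l has 3 exons at chr16:10170226-10174911 but 1 coding exon. Cetn2 has 5 exons at chrX:72913532-72918411, and Cetn1 has 2 exons at chr18:9615524-9619478 with 1 coding exon. Each retrogene thus keeps its coding sequence in 1 exon.

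Coding sequences of retrogene and parent were 79.3% identical for Pgk2, 75.8% for Pdha2, 84.7% for Rpl10l, 85.0% for Rpl39l and 78.6% for Cetn1. No run of 90 bases in the last 500 bases of a transcript was shared within a pair, so a 3′ read of that length can tell the members apart. Rpl10 is different: all 411 such windows also occur in another gene, among them Rpl10-ps3. Counts of Rpl10 are therefore uncertain, as are those of Rpl39, in which 20 of 411 windows recur in 2 pseudogenes. The shares, ratios and swap class given below for the Rpl10 and Rpl39 pairs carry the same uncertainty.

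The retrogenes moved away from the promoters of their parents, and in the Pgk and Pdha pairs the start regions differed widely in base composition. The sequences of 250 bases before to 50 bases after the start of transcription are shown for the pairs with the widest contrast in base composition and for Rpl39l, which shares a motif with Pdha2 (RefSeq, GRCm38.p6, 5′ to 3′ on the strand of the gene). Capitals mark matches to the 4 motifs searched on both strands. These were the MYB motif AACNGTT, the GC box GGGCGG, the TATA box TATAAA and the cyclic AMP response element TGACGT.
Pgk2 (chr17:40208560-40208859, minus strand): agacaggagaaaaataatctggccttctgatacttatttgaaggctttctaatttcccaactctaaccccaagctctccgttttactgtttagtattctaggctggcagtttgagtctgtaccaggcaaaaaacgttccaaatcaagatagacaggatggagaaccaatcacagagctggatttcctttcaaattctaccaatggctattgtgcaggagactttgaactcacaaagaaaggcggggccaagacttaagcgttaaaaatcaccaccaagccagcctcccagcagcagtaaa
Pgk1 (chrX:106186850-106187149, plus strand): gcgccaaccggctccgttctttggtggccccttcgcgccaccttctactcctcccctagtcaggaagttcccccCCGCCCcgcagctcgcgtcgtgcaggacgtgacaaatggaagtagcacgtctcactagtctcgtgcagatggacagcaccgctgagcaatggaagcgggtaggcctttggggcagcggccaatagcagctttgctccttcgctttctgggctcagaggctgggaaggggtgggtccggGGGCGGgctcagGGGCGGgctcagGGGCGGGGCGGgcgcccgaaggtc
Pdha2 (chr3:141212306-141212605, minus strand): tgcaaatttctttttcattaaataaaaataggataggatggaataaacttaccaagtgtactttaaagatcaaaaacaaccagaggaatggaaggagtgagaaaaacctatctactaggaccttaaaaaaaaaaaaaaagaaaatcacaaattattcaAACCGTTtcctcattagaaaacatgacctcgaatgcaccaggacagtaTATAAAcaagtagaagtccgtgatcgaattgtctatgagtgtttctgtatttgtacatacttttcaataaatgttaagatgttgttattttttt
Pdha1 (chrX:160138381-160138680, minus strand): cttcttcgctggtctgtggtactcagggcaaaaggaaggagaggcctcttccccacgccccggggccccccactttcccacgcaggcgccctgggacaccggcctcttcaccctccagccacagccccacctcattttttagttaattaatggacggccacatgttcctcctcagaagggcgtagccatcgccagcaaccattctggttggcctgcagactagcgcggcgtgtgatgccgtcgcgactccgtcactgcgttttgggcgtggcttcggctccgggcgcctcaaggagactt
Rpl39l (chr16:10169978-10170277, plus strand): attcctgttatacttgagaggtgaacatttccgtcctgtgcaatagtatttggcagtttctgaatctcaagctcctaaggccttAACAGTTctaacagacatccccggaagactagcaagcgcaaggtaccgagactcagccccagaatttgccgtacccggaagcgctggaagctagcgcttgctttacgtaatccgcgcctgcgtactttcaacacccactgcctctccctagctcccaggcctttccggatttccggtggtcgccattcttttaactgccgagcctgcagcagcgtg
GC content was 43.0% for Pgk2 and 66.7% for Pgk1, and 29.7% for Pdha2 and 62.0% for Pdha1, beside a median of 52.7% over 32851 promoters. The parents Rpl10, Rpl39 and Cetn2 were at 53.7%, 58.0% and 57.3%, and the retrogenes Rpl10l and Rpl39l at 52.0% and 52.7%. MYB-family A-MYB drives many pachytene genes, and AACNGTT was found in Pdha2 (92 bases before the start, position -92) and Rpl39l (position -166). It occurs in 4.5% of all promoters of this length. It reads as a match on both strands, which is 1 site. GC boxes were found in Pgk1 (5 matches, a pair of them overlapping), and single ones in Rpl10l, Rpl10 and Cetn2, against 35.7% of all promoters. TATAAA was found in Pdha2 (position -44) and Rpl39 (position -96), against 13.6%, and TGACGT, found in 7.5%, was in none of the 9 promoters searched. The table held no promoter for Cetn1. A match describes letters in this window and not a bound site.

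In leptotene to early pachytene cells the parents were nearly absent, and almost all UMI of the 5 pairs were those of the retrogenes. In this class (Lep/Zygo/ePac SC), Pdha1 had 0 UMI among 39529238 UMI in 6 libraries, while Pdha2 had 20856. Counting a 0 as at most 3 UMI over the 6 libraries, Pdha2 was at least 6952-fold above its parent there. In the same class Rpl39 had 0 UMI and Rpl39l 1862, a difference of at least 620.7-fold. Rpl10 had 4 UMI and Rpl10l 4702. Pgk1 and Cetn2 were less depleted, with 36 and 32 UMI beside 2528 of Pgk2 and 25444 of Cetn1. Across these 6 libraries the retrogene made up 97.7% to 99.4% of the UMI of the Pgk pair and at least 99.7% of every other pair. These limits cover counting error only. UMI of this 3′ chemistry do not grow with transcript length, so counts of different genes are set side by side without a length correction.

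Before that, the parents were measured in spermatogonia and somatic cells. In undifferentiated spermatogonia, Pgk1 averaged 13.97 CPM, Pdha1 29.9, Rpl10 41.5, Rpl39 2.75 and Cetn2 35.4 CPM over the 6 libraries. In preleptotene spermatocytes, Pgk1 averaged 7.72 CPM, Pdha1 8.45, Rpl10 11.6 and Rpl39 0.824 CPM, each below its mean in both spermatogonial classes. Cetn2 stayed at 25.2 CPM in preleptotene cells and was at 0.810 CPM in the next class. Rpl39 was low everywhere, at 4.81 CPM or less in every class and with 46 UMI in the whole data set. Somatic cells held the highest levels of 4 parents: Rpl10 reached 223.5 CPM in macrophages, Pdha1 88.1 CPM in the class named Unknown, Pgk1 55.1 CPM in Leydig cells and Rpl39 4.81 CPM in macrophages. The ranges of these somatic classes overlapped those of the next class in each order. Cetn2 alone had its highest mean in undifferentiated spermatogonia, with libraries from 27.1 to 47.1 CPM that overlapped the 20.5 to 54.0 CPM of myoid cells.

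Each retrogene had its own time course after the switch. Pdha2 was highest at once: in leptotene to early pachytene cells it stood at 548, 527 and 495 CPM in NONO deltaER libraries TD, TE and TF, against 530, 514 and 536 CPM in NONO libraries TA, TB and TC. The genotypes overlapped, and no other class reached this level. Pdha2 was at 403 CPM in round spermatids of steps 5-6 and at 25.2 CPM in steps 6-7. Cetn1 peaked in pachytene to early diplotene cells (IPac/eDip SC) at 1125, 1028 and 984 CPM in TD, TE and TF, against 1107, 1173 and 1031 CPM in TA, TB and TC. The libraries of the class named Round ST(Step 1-2), at 909 to 1044 CPM, overlapped these. Cetn1 was still at 671 CPM in steps 6-7 and at 62.8 CPM in steps 7-8. Rpl10l was between 109 and 163 CPM from leptotene to early pachytene cells up to steps 4-5. It was highest on average in step 3 (148 to 174 CPM, overlapping the 126 to 154 CPM of steps 4-5). After steps 4-5 it dropped to 62.9, 11.8 and 11.4 CPM in the next 3 classes. Rpl39l averaged 46.2 CPM in leptotene to early pachytene cells, 78.7 CPM in the class named Round ST(Step 1-2) and 44.0 CPM in steps 7-8. Elongated spermatids held 3.19 CPM of it. NONO deltaER libraries TD and TF were the highest and lowest for Rpl39l in step 3, at 101 and 59.0 CPM.

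Pgk2 followed another course. It was at 64.0 CPM in leptotene to early pachytene cells and 266 CPM in the following class, and was higher in each later class up to its maximum in elongated spermatids. There it stood at 3509, 3897 and 4128 CPM in NONO deltaER libraries TD, TE and TF, against 3830, 3808 and 3770 CPM in NONO libraries TA, TB and TC. The last 3 classes, at 1958, 2704 and 3823 CPM, were separate in their library ranges. The other retrogenes were low in elongated spermatids, with Cetn1 the highest of them at 42.5 CPM. A drop in CPM late in spermiogenesis is a share of what the cell still holds, and summed elongating spermatid markers made up 16.2% of UMI in NONO deltaER elongated spermatids.

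**Figure D1:**
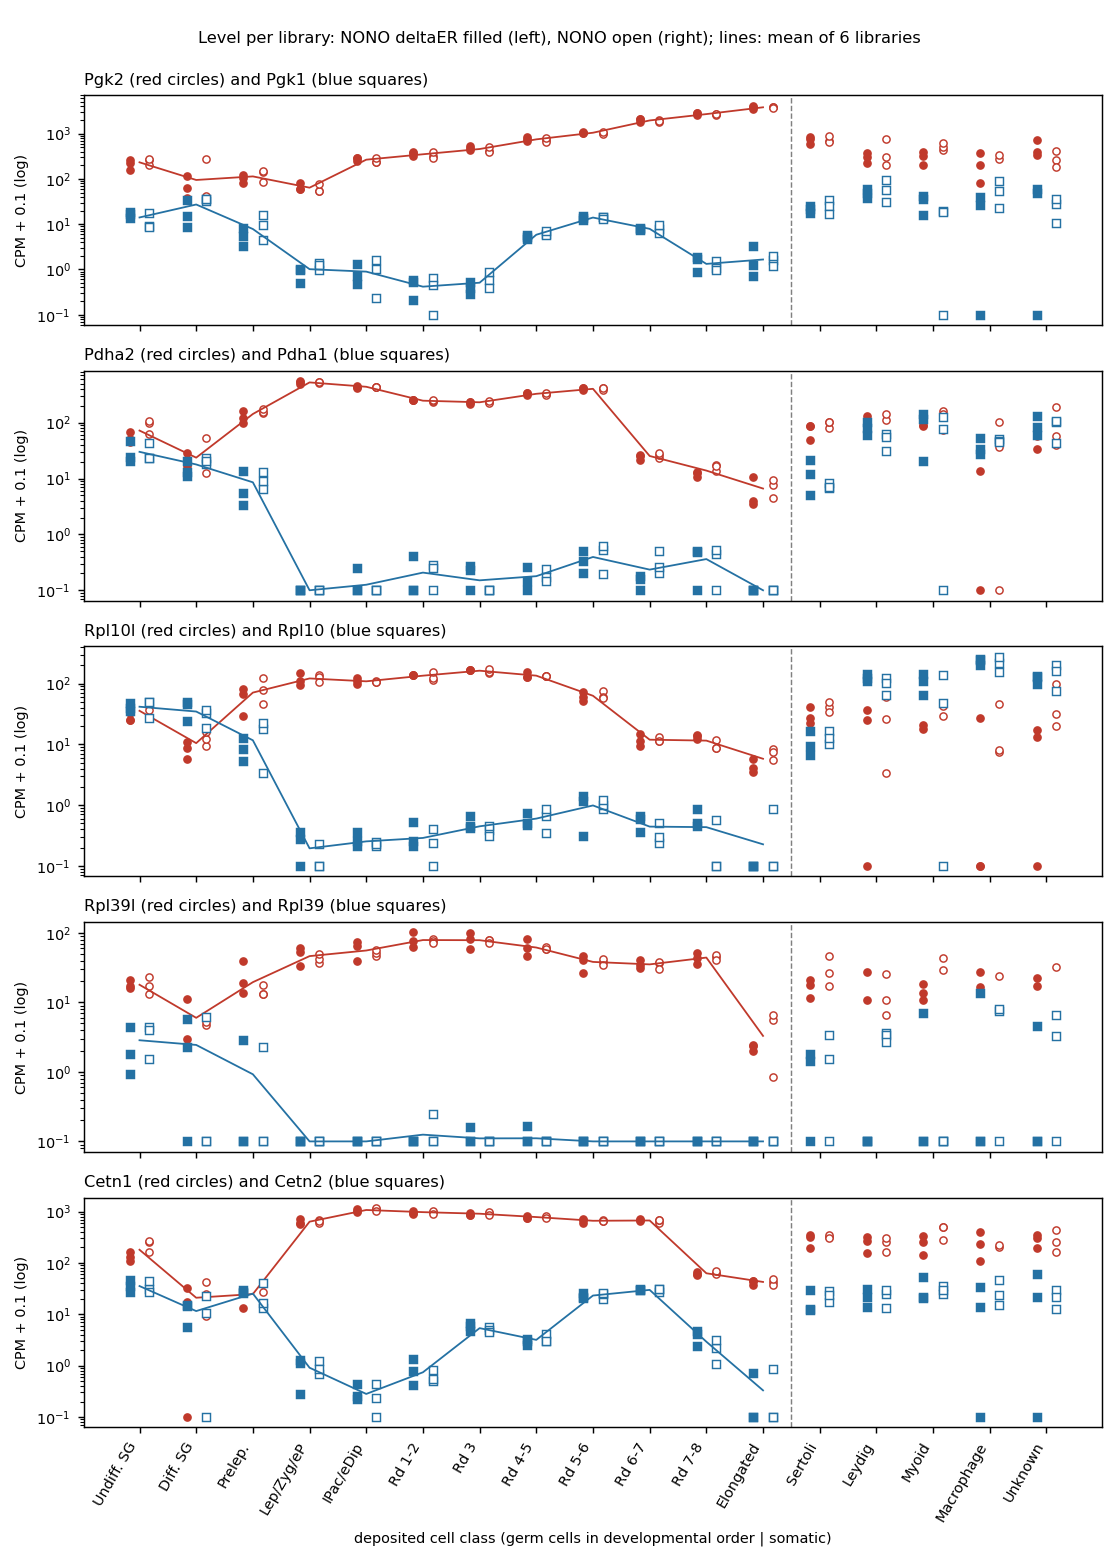
Level of each retrogene (red circles) and its parent (blue squares) in CPM plus 0.1 on a log axis, by deposited cell class, with 1 point per library (NONO deltaER filled and left, NONO open and right) and lines through the means of 6 libraries. A point at 0.1 is a library without UMI; the parents of all 5 pairs average at most 0.913 CPM in leptotene to early pachytene cells, while Pgk2 reaches 3823 CPM in elongated spermatids.

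Retrogene UMI were also found in every class in which these genes should be silent, which bears on when the swap began. Sertoli cells carried 735 CPM of Pgk2, 306 of Cetn1, 84.4 of Pdha2, 36.0 of Rpl10l and 23.3 of Rpl39l, and 39.9% of their cells had a Pgk2 UMI at a median of 1836 UMI per cell. Somatic classes carried spermatid RNA in general, and the 7 measured elongating spermatid markers made up 4.08% of UMI in NONO deltaER Sertoli cells. The retrogene was therefore set against these markers. Per 100 marker UMI, the 5 somatic classes held 1.77 to 2.69 UMI of Pgk2, 0.204 to 0.732 of Pdha2, 0.0862 to 0.228 of Rpl10l, 0.0546 to 0.131 of Rpl39l and 0.749 to 2.3 of Cetn1. Levels inside these ranges were read as background. Levels above them do not by themselves show transcription, since the measure depends on the stage from which carried-over RNA comes. Per 100 marker UMI, Rpl10l was at 27.6 in the class named Round ST(Step 1-2) and at 0.00352 in elongated spermatids.

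Measured this way, the retrogenes stood above the somatic range in different classes. In undifferentiated spermatogonia Pgk2 (2.4), Pdha2 (0.691) and Cetn1 (1.74) lay inside the somatic range per 100 marker UMI, and Rpl10l (0.356) and Rpl39l (0.18) lay above it. Single libraries of somatic classes with few UMI reached 2.17 for Rpl10l in macrophages and 0.423 for Rpl39l in Leydig cells, above both spermatogonial values. In CPM both genes lay among the somatic class means, at 35.6 for Rpl10l and 17.8 for Rpl39l. Sertoli cells held 36.0 and 23.3 CPM of them. Against the pooled somatic cells of the same library, the spermatogonial measure was 1.99 to 5.97 for Rpl10l, 1.74 to 8.62 for Rpl39l, 1.46 to 4.56 for Pdha2, 1.1 to 3.32 for Cetn1 and 1.02 to 1.66 for Pgk2, above 1 in all 6 libraries for each. In preleptotene spermatocytes Pdha2 reached 3.04, Rpl10l 1.49 and Rpl39l 0.431, all above the somatic range. Pgk2 (2.34) was still inside it and Cetn1 (0.536) below it. Single preleptotene libraries ran from 0.661 to 2.86 for Rpl10l and from 0.165 to 1.72 for Rpl39l. Some of them lay below the highest single somatic libraries given above. In leptotene to early pachytene cells all 5 were above the somatic range, with Cetn1 at 67.9, Pdha2 at 55.7, Rpl10l at 12.6, Pgk2 at 6.75 and Rpl39l at 4.97. In CPM, however, Pgk2 had its lowest mean of the 17 classes there, at 64.0, beside somatic class means of 228 to 735 CPM. Spermatid markers made up 0.0944% of UMI in that class, so the Pgk2 value is high relative to few marker UMI. Against the pooled somatic cells of the same library, Pdha2 was 6.15 to 15.4 times higher in preleptotene cells and Rpl10l 4.77 to 20.9 times. For Cetn1 that measure was 0.217 to 1.25 in preleptotene cells and 48.6 to 108 in the next class. For Pgk2 it was 0.995 to 1.53 and 2.69 to 5.35, and then 9.28 to 29.5 in pachytene to early diplotene cells.

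**Figure D2:**
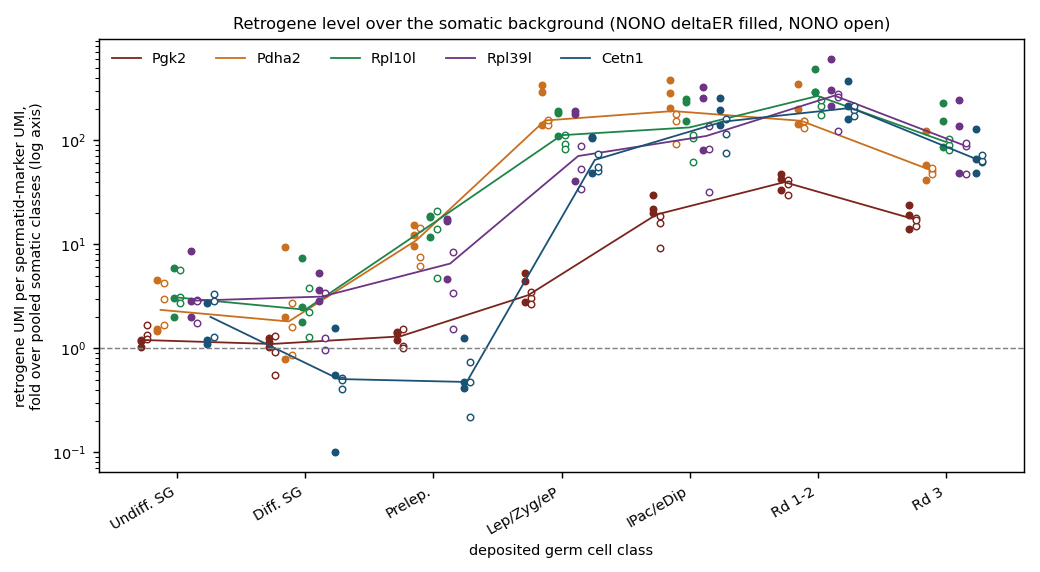
UMI of each retrogene per spermatid-marker UMI, as a fold over the same measure in the pooled somatic cells of the same library (log axis), for the first 7 germ cell classes in developmental order. Points are libraries (NONO deltaER filled and left, NONO open and right) and lines are medians of 6; a library without Cetn1 UMI is drawn at 0.1. The dashed line at 1 is the somatic level; the median of Pdha2 is 2.34 in undifferentiated spermatogonia, 11 in preleptotene cells and 155 in the next class, while Cetn1 is at 0.474 in preleptotene cells and 64.8 in the next class.

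The plain comparison of retrogene with parent placed the swap earlier. By that rule Pgk2, Pdha2, Rpl39l and Cetn1 first exceeded their parents in every library in class 1, undifferentiated spermatogonia, and Rpl10l in class 3, preleptotene spermatocytes. Counting only from the class in which, and in every later one, the retrogene was above its parent in all 6 libraries, an alternative added after the data were seen, it was class 3 for Pgk2, Pdha2, Rpl10l and Rpl39l and class 4 for Cetn1. The levels in undifferentiated spermatogonia also depended on cells that looked like doublets. The cells with the highest 5% of doublet scores per library included 1.94% of the class named Differentiated SG and 2.78% of preleptotene cells. They included 17.8% of the undifferentiated spermatogonia. Among the somatic classes they made up 16.1% (class named Unknown) to 28.3% (macrophages). Without those cells, mean Pgk2 in undifferentiated spermatogonia was 70.4 CPM in place of 232 CPM, Pdha2 29.1 in place of 72.0 CPM and Cetn1 44.1 in place of 181 CPM. Their parents were at 16.8, 37.5 and 43.4 CPM without them, so Pdha1 then stood above Pdha2. Mean Pgk2 was also lower in every somatic class without the high-scoring cells. In Sertoli cells it was 654 in place of 735 CPM, and in macrophages 77.1 in place of 228 CPM. The somatic background thus depended on such cells too.

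Shares of cells with a UMI were compared at equal depth. With each cell thinned to 1000 UMI, 836 preleptotene cells remained, of which 11.7% had Pdha2 and 0.718% had Pdha1, and 1 cell had both. At shares this low, few cells with both are detectable. In leptotene to early pachytene cells, 42.1% of 2439 thinned cells had Pdha2 and 0 had Pdha1, which allows up to 0.123% of cells with a Pdha1 UMI at this depth and does not limit the cells that express it. Without thinning, 97.2% of these cells had Pdha2 at a median of 13122 UMI per cell. Rpl10l was found in 6.58% of thinned preleptotene cells and Rpl10 in 0.957%, again with 1 cell holding both. In undifferentiated spermatogonia the order was the other way for this pair, with Rpl10l in 2.75% and Rpl10 in 4.24% of 1344 thinned cells. The 5 somatic classes, thinned alike, had Rpl10l in 0.588% to 3.06% of cells, with the highest share in Sertoli cells, which had Pdha2 in 7.78%.

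Some parents came back in spermatids while others did not. Pgk1 averaged 0.409 CPM in step 3, 5.74 CPM in steps 4-5, 13.9 CPM in steps 5-6 and 7.79 CPM in steps 6-7. In steps 5-6 it stood at 12.02, 15.4 and 13.9 CPM in NONO deltaER libraries TD, TE and TF, against 14.6, 14.5 and 12.95 CPM in NONO libraries TA, TB and TC. Its mean was near the 13.97 CPM of undifferentiated spermatogonia, and the library ranges overlapped. Cetn2 averaged 5.27 CPM in step 3, 23.1 CPM in steps 5-6 and 29.8 CPM in steps 6-7, the last within the range of its spermatogonial libraries. Both were low again in steps 7-8, at 1.23 and 2.83 CPM. Pdha1, Rpl10 and Rpl39 did not return to that extent, with highest spermatid means of 0.294, 0.886 and 0.0251 CPM. The retrogene still held the larger share in all these classes, at 98.7% of the Pgk pair and 96.6% of the Cetn pair in steps 5-6.

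The 956 X-linked genes as a whole showed the same low point. They held 2.07% of UMI in undifferentiated spermatogonia, 1.58% in preleptotene cells, 0.0516% in leptotene to early pachytene cells and 0.0344% in pachytene to early diplotene cells. They were back at 0.535% in step 3, 1.49% in steps 5-6 and 1.95% in steps 7-8. In steps 7-8 X-linked UMI as a whole were therefore near their spermatogonial share, while Pgk1 and Cetn2 were not.

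Other genes with a like course over the 17 classes were named by correlation of mean log2(CPM + 1), as a description, since all classes come from the same libraries. Closest to Pgk2 among 9924 genes were Osbp2 (r = 0.985), Gm9970 and Ak1, an adenylate kinase. Closest to Cetn1 among 9925 genes were Ldhc, the testis form of lactate dehydrogenase (r = 0.988), Ccdc7b and Cmtm2a. Pdha2 was nearest to Gm26611 (r = 0.965), 4930503L19Rik and Rfx4, and Rpl10l to Dnaic1, a dynein chain of the axoneme (r = 0.959), Rnf32 and 4930503L19Rik. Rpl39l was nearest to Spata17 (r = 0.946), Acot7 and Tubb4b. Among the parents, Pdha1 and Rpl10 were close to each other (r = 0.987), and Pgk1 was nearest to the X-linked gene Lamp2 (r = 0.952). Rpl39 was nearest to Fam50a (r = 0.983), itself an X-linked parent of a retrocopy, and Cetn2 to Tnrc6b (r = 0.914).

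Between the genotypes, no member passed the test in any class. NONO deltaER was compared with NONO in each class by edgeR's quasi-likelihood test on UMI summed per library, with Benjamini-Hochberg adjustment over all genes of the class. A low-count filter left 89 of 170 combinations of member and class, so Rpl39 was tested in none, and 0 of the 89 were called, beside 0.0154% of all genes over the 17 classes together and 0.327% in preleptotene cells, the highest share of any class. Unadjusted p was under 0.05 for 4 of them and the lowest adjusted p was 0.127. Of all genes, 2.35% (class named Round ST(Step 1-2)) to 16.2% (undifferentiated spermatogonia) had such an unadjusted p by class. On the sums over all cells 9 members were tested and 0 called, with a lowest adjusted p of 0.823. There 0 members had an unadjusted p under 0.05, beside 6.0% of all genes. In leptotene to early pachytene cells the fitted log2 fold change of NONO deltaER over NONO was 0.13 for Pgk2, -0.01 for Pdha2, -0.09 for Rpl10l, 0.23 for Rpl39l and -0.02 for Cetn1. The libraries of the genotypes overlapped for all 5 in this class.

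**Figure D3:**
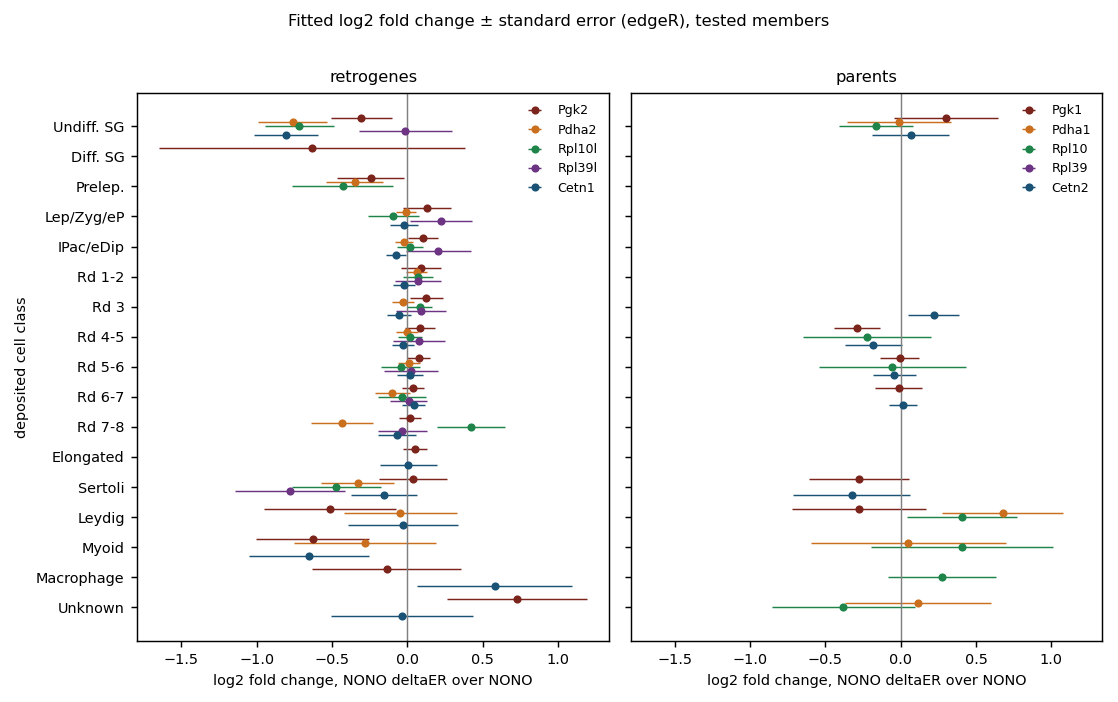
Fitted log2 fold change of NONO deltaER over NONO with its standard error (edgeR) for retrogenes (left) and parents (right), by deposited cell class. From leptotene to early pachytene cells up to round spermatids of steps 6-7, the retrogenes lie near 0 with short bars; undifferentiated spermatogonia hold Cetn1, Pdha2 and Rpl10l at -0.81, -0.76 and -0.72, and none passed the test.

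Undifferentiated spermatogonia held 3 of the 4 combinations with an unadjusted p under 0.05, in a class where 16.2% of all genes had one and 0.0271% were called. Cetn1 had 130, 109 and 163 CPM in NONO deltaER libraries TD, TE and TF, against 162, 255 and 265 CPM in NONO libraries TA, TB and TC. TF and TA were alike, and the groups overlapped. The log2 fold change was -0.81 ± 0.21 (standard error; edgeR adjusted p = 0.127). Pdha2 had 44.8, 50.5 and 67.2 CPM in TD, TE and TF, against 63.0, 98.4 and 108 CPM in TA, TB and TC, with overlap between TF and TA. Its log2 fold change was -0.76 ± 0.23 (edgeR adjusted p = 0.144). Rpl10l had 24.6, 25.3 and 33.2 CPM in TD, TE and TF, against 42.7, 50.5 and 37.0 CPM in TA, TB and TC, and all NONO deltaER libraries were lower. Libraries were separated in this direction for 7.4% of all genes of the class. The log2 fold change of Rpl10l was -0.72 ± 0.23 (edgeR adjusted p = 0.153). Pgk2 and Rpl39l were at -0.31 ± 0.20 and -0.01 ± 0.31, and the parents Pgk1, Pdha1, Rpl10 and Cetn2 at 0.30, -0.01, -0.16 and 0.07.

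Markers of later germ cells moved with these 3 retrogenes in that class. All 8 measured round spermatid markers were lower in every NONO deltaER library, with sums of 262.6 to 395.9 CPM in NONO deltaER and 470.4 to 876.2 CPM in NONO. The 8 pachytene and diplotene markers had lower means in NONO deltaER, with sums of 798 to 1350 CPM in NONO deltaER and 1212 to 1905 CPM in NONO. Elongating spermatid markers overlapped, at 7262 to 10650 CPM in NONO deltaER and 6486 to 12310 CPM in NONO, and undifferentiated spermatogonia markers were higher, at 1159 to 1519 CPM in NONO deltaER and 1060 to 1125 CPM in NONO. The part of these cells in the retrogene values was not tested. The call itself depended on the settings. Cetn1 passed the threshold with DESeq2 (adjusted p = 0.0311), and Cetn1 and Pdha2 passed with no filter (adjusted p = 1.62e-05 and 0.00638), without library TA (0.0034 and 0.0132) and without library TF (0.0312 and 0.0397), by edgeR in the last 3. Under these settings many more genes of the class were called in all: 2.19% with DESeq2, 3.75% with no filter, 5.15% without TA and 5.51% without TF, beside the 0.0271% of the reported test. Over its 12 alternatives the adjusted p of Cetn1 ran from 1.62e-05 to 0.454.

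Leaving out the cells with the highest doublet scores brought the levels down and separated 2 retrogenes. Cetn1 was then at 27.8, 11.2 and 18.8 CPM in NONO deltaER libraries TD, TE and TF, against 38.6, 90.2 and 77.8 CPM in NONO libraries TA, TB and TC. Pgk2 was at 35.5, 23.5 and 55.2 CPM in TD, TE and TF, against 123, 110 and 75.4 CPM in TA, TB and TC. For both, all NONO deltaER libraries were lower, as for 7.69% of all genes tested. Scrublet gave the scores, and the cells were left out in both genotypes. The log2 fold change was -1.77 for Cetn1 (edgeR adjusted p = 0.0129) and -1.56 for Pgk2 (edgeR adjusted p = 0.00224). In these cells 3.66% of all 9878 genes tested were called. Pdha2 and Rpl10l overlapped between the genotypes in these cells, with means of 25.2 and 21.0 CPM in NONO deltaER and 33.0 and 21.6 CPM in NONO. Elongating spermatid markers were now lower in every NONO deltaER library, with sums of 1160, 989.1 and 1424 CPM in TD, TE and TF, against 6184, 3277 and 2269 CPM in TA, TB and TC. Pachytene and diplotene markers were lower too, with sums up to 347.4 CPM in NONO deltaER and at least 405 CPM in NONO. Of these 8 markers, 6 had lower means in NONO deltaER and 3 were lower in every NONO deltaER library. Round spermatid markers now overlapped, with sums of 89.2, 80.6 and 91.6 CPM in TD, TE and TF, against 83.2, 268.9 and 274.8 CPM in TA, TB and TC. All 8 had lower means in NONO deltaER, and 0 were lower in every NONO deltaER library. The part of later germ cells in the Pgk2 and Cetn1 differences was not tested.

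**Figure D4:**
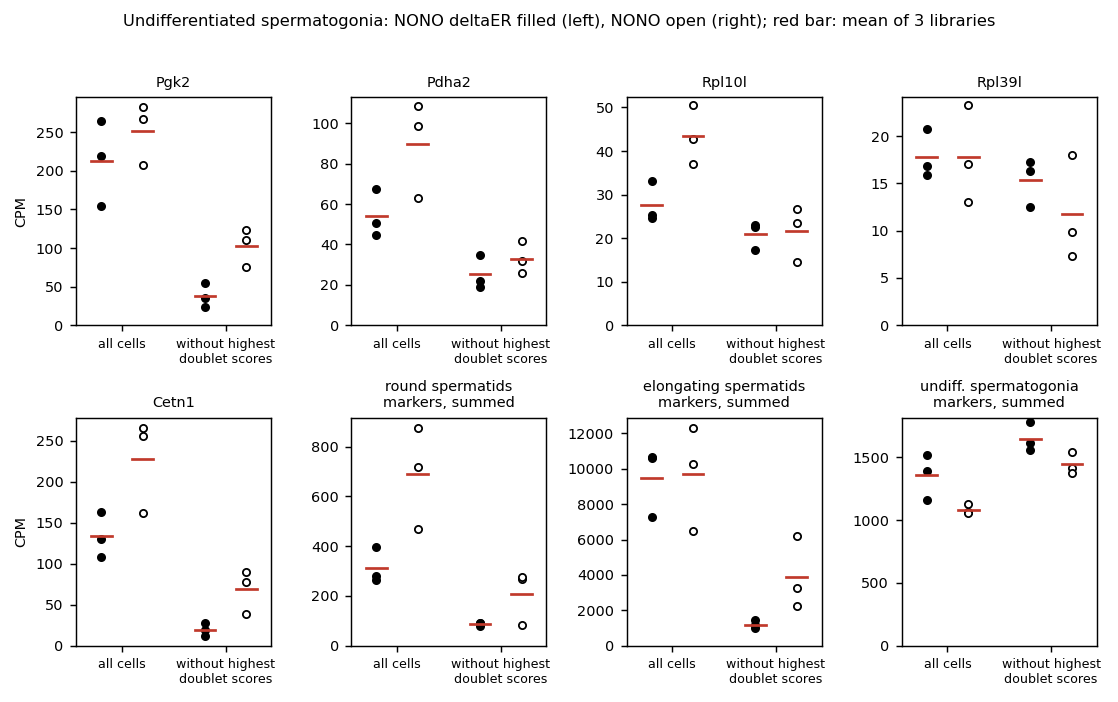
Level in CPM of the 5 retrogenes and of 3 summed marker lists in undifferentiated spermatogonia, by library (NONO deltaER filled and left, NONO open and right; red bar: mean of 3), for all cells and without the cells with the highest doublet scores. Cetn1, Pdha2, Rpl10l and the round spermatid markers have lower means in NONO deltaER in all cells, and Pgk2, Cetn1 and the elongating spermatid markers are apart in the remaining cells.

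In round spermatids of steps 7-8, Rpl10l had 13.9, 13.7 and 11.9 CPM in NONO deltaER libraries TD, TE and TF, against 11.7, 8.583 and 8.602 CPM in NONO libraries TA, TB and TC. All NONO deltaER libraries were higher, a separation found for 4.35% of genes of that class, and the log2 fold change was 0.42 ± 0.23 (edgeR adjusted p = 0.999). Pdha2 was lower in all NONO deltaER libraries there, at 10.5, 12.3 and 12.7 CPM in TD, TE and TF, against 17.04, 13.4 and 16.8 CPM in TA, TB and TC, as 3.62% of genes were. Over all cells Pdha2 was also lower in each NONO deltaER library, at 263, 268 and 255 CPM in TD, TE and TF, against 273, 282 and 289 CPM in TA, TB and TC, a separation found for 3.93% of genes (log2 fold change -0.12 ± 0.07, edgeR adjusted p = 0.843).

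Outside spermatogonia, the fourth combination was Rpl39l in Sertoli cells, where 4.83% of all genes had an unadjusted p under 0.05. It had 17.7, 11.3 and 21.1 CPM in NONO deltaER libraries TD, TE and TF, against 26.0, 46.8 and 16.97 CPM in NONO libraries TA, TB and TC. The groups overlapped, and the log2 fold change was -0.78 ± 0.36 (edgeR adjusted p = 0.96).

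The ratio of retrogene to parent within a library cancels library scaling where both genes have many UMI. Averaged over germ cell classes with enough UMI, this ratio overlapped between the genotypes for every pair. In 4 of 56 tested combinations of pair and class the libraries were apart. With 3 against 3 libraries the exact permutation test cannot go below p = 0.1. No ratio could therefore pass the threshold, and the test cannot show that the genotypes were alike. Where the parent has 0 UMI, the ratio follows retrogene UMI and thus depth. In leptotene to early pachytene cells Pdha2 over Pdha1 was at 13.03 in TD and 12.04 in TF, with 7616319 and 4246357 UMI in the class. Mean ratios of the Pdha and Rpl39 pairs therefore partly follow depth. The other parents also had 0 UMI in single libraries of some classes, so their pairs are not free of this. In leptotene to early pachytene cells Rpl10 had 0 UMI in TF, TA and TB, and the log2 ratios of its pair were 10.3, 10.9 and 10.8. They were 8.17, 8.70 and 9.11 in TD, TE and TC. The mean log2 ratio over germ cell classes with enough UMI was 7.86 ± 0.35 in NONO deltaER and 7.75 ± 0.42 in NONO for Pgk2 over Pgk1. For Pdha2 over Pdha1 it was 8.77 ± 0.20 in NONO deltaER and 8.85 ± 0.17 in NONO. For Rpl10l over Rpl10 it was 6.77 ± 0.55 in NONO deltaER and 7.19 ± 0.17 in NONO. For Rpl39l over Rpl39 it was 9.70 ± 0.25 in NONO deltaER and 9.83 ± 0.25 in NONO. For Cetn1 over Cetn2 it was 6.89 ± 0.10 in NONO deltaER and 7.14 ± 0.14 in NONO (SD, n = 3 libraries each; exact permutation test). Libraries of the genotypes overlapped in all 5 pairs. Two-sided exact permutation p-values were 0.5, 0.6, 0.4, 0.6 and 0.2 in the same order, where 3 against 3 libraries cannot go below 0.1, and adjusted p was 0.6 for each. Of 85 combinations of pair and class, 56 had enough UMI to test, and 4 reached p = 0.1 in the exact permutation test, with a smallest adjusted p of 0.861. The swap by the plain rule fell in the same class in all 6 libraries for 4 pairs, and for Rpl10l it fell 2 classes earlier in NONO library TC than in the other 5.

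In those 4 of 56 tested combinations the libraries did not overlap. For a random split of 3 against 3 libraries, such a separation has a rate of 0.1 per test. Pgk2 over Pgk1 in steps 4-5 was higher in NONO deltaER, at log2 ratios of 7.24, 7.16 and 7.24 in TD, TE and TF, against 6.87, 6.85 and 6.81 in TA, TB and TC. Rpl10l over Rpl10 in undifferentiated spermatogonia was lower, at -0.92, -0.48 and -0.23 in TD, TE and TF, against -0.22, 0.00 and 0.44 in TA, TB and TC. Rpl39l over Rpl39 in steps 4-5 was lower by 0.90 on the log2 scale but rests on 1 UMI of Rpl39. Pdha2 over Pdha1 in Sertoli cells was lower by 0.90, where the retrogene is within the range of background.

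Other X-linked parents with autosomal retrocopies were as low in meiosis. Of the listed pairs, 8 had both members measured: Rbmxl2 and Rbmx, Ubl4b and Ubl4a, Fam50b and Fam50a, Prps1l1 and Prps1, Timm8a2 and Timm8a1, Nkapl and Nkap, D1Pas1 and Ddx3x, and Rpl36al and Rpl36a. In pachytene to early diplotene cells all 8 retrocopies were above their parents, at 9.22 to 542.3 CPM beside parents of at most 1.47 CPM. The lowest retrocopy was Ubl4b, below its somatic class means of 93.1 to 386 CPM. In the class named Round ST(Step 1-2) it was below Ubl4a, at 5.30 beside 8.11 CPM. The parents had been at 9.04 to 53.2 CPM in undifferentiated spermatogonia. D1Pas1, a DEAD-box helicase copied from Ddx3x, was highest in leptotene to early pachytene cells at 369.8 CPM. Ubl4b, a ubiquitin-like protein, was at 11.01 CPM there and reached 2420 CPM in steps 7-8, later than the other retrocopies named here. Of 173 combinations of gene and class from this list, 0 were called between the genotypes by edgeR and 13 had an unadjusted p under 0.05. Of all genes, 0.0154% were called over the 17 classes together, and 2.35% to 16.2% by class had such an unadjusted p.

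The partners of the members were measured by 4 further lists. In lower glycolysis, all 12 measured genes had a log2 fold change below 0 in undifferentiated spermatogonia, with a median of -0.64 beside 0.01 for all genes tested. Of these 12, 6 had an unadjusted p under 0.05 and 0 were called (edgeR, lowest adjusted p 0.129), beside 16.2% and 0.0271% of all genes. Its most abundant members were Pgam2, a phosphoglycerate mutase, and Ldhc. Ldhc is also on the pachytene and diplotene marker list, whose sum was lower on average in the same class. The median of the glycolysis list was -0.37 in differentiated spermatogonia (3 of 3 tested below 0), -0.21 in preleptotene cells (10 of 10 below 0) and -0.05 in pachytene to early diplotene cells (7 of 12 below 0). For pyruvate dehydrogenase partners, such as the mitochondrial pyruvate carrier Mpc2 and the E3 subunit Dld, 12 members were tested in undifferentiated spermatogonia and the median was 0.01. Mpc2 stayed at 1149 CPM in steps 6-7, where Pdha2 had dropped to 25.2 CPM and Dld to 4.99 CPM. Centrins Cetn4 and Cetn3 were highest in step 3, at 533.6 and 277.7 CPM, and the centrin list had a median of 0.00 in undifferentiated spermatogonia. Autosomal ribosomal protein genes were measured at 8.79% to 94.9% of their undifferentiated spermatogonial mean in pachytene to early diplotene cells, with a median of 46.2%, and all 27 had a lower mean there. Rplp0 and Rpl13, the most abundant, were at 1394 and 913.1 CPM in those meiotic cells, and Rpl22, with the lowest percentage, was at 10.01 CPM. That list had a median of -0.07 in undifferentiated spermatogonia, -0.23 in preleptotene cells, -0.17 in Sertoli cells (21 of 23 tested below 0) and 0.61 in macrophages (1 of 18 below 0). Medians over all genes tested were 0.01, -0.002, 0.006 and 0.03 in the same order. The macrophage value rests on low depth, with 21850 UMI in the smallest library. Over the 17 classes, 0 of the 940 combinations of list gene and class were called by edgeR in the 5 lists, and 43 had an unadjusted p under 0.05. The shares over all genes were 0.0154% called, and 2.35% to 16.2% by class with such an unadjusted p.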

How the data were processed

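The deposited files hold UMI counts per gene and cell and the authors' table of library, group and cell class; library letters give a group but could not be tied to single samples of the labels. Alignment and counting used Cell Ranger 2.1.1 and mm10, per the submitters' processing notes. Counts were summed per library and class, and CPM are counts per 1e6 UMI of each sum. Genotypes were compared per class with edgeR 4.0.16 (R 4.3.3, limma 3.58.1; TMM factors, filterByExpr, robust quasi-likelihood test, Benjamini-Hochberg adjustment over the genes of a class), and the test was tried on simulated data. Ratios used log2 with 0.5 UMI added to each gene, classes with at least 20 UMI of a pair in every library, and a two-sided exact permutation test. Doublet scores came from Scrublet in scanpy 1.11.5 (Python 3.11.15), which called 0.398% of cells; this caller has not worked here, so all deposited cells were kept and the 5% highest scores per library were left out as an alternative. DESeq2 1.42.0 was another. The members and lists were chosen with earlier results of these data known. Named genes were the members, the 2 most abundant genes of each list when none was called, and the 3 genes most like each member among those of at least 50 CPM in 1 class. Symbols matched the annotation for 25127 genes (97.5%).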

Additional observations from a re-analysis of the deposited data

Results flagged for a closer look

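Rpl10l had log2 fold changes of opposite sign in a pair of classes, each with the genotypes fully apart. It was 0.42 in round spermatids of steps 7-8, where all 3 NONO deltaER libraries were higher than all 3 NONO libraries, and -0.72 in undifferentiated spermatogonia, where all 3 were lower. The difference between the classes was not tested, and neither fold change passed edgeR's test.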

How the results depend on the processing

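Calls of members were 0 in the reported test, 2 with no filter, 1 with DESeq2, 2 without the highest doublet scores and 0 to 2 when 1 library was left out, with 2 without TA and 2 without TF. All these were in undifferentiated spermatogonia, where 3 of all 11064 genes were called in the reported test, 825 of 21974 with no filter, 242 of 11064 with DESeq2, 362 of 9878 without the highest doublet scores, 594 of 11524 without TA and 634 of 11512 without TF. For the 5 other lists the calls were 0, and 10 with no filter, 2 with DESeq2, 5 without the highest doublet scores and 0 to 5 when 1 library was left out, with 5 without TA and 5 without TF. These list calls were in undifferentiated spermatogonia as well, apart from 1 with no filter. That one was in pachytene to early diplotene cells, where 53 genes were called in all. RLE factors, cells with at least 1000 UMI and a covariate for the library sets of mitochondrial share left both counts within 1.5 times. The swap moved from class 1 to class 9 for Pgk2 and to class 4 for Pdha2, Rpl39l and Cetn1, and from class 3 to class 4 for Rpl10l, where the retrogene also had to exceed every somatic mean. It moved to class 3 for Pgk2, Pdha2 and Rpl39l and to class 4 for Cetn1 where the retrogene had to be above its parent in every library of that and every later class. Without the highest doublet scores it was class 3 for Pdha2 and class 4 for Cetn1, and with thinned cells class 3 for Rpl39l. The mean log2 ratio of Pdha2 to Pdha1 differed by 0.18 (NONO deltaER minus NONO) without the highest doublet scores and by -0.49 with UMI summed over all germ cells, and that of Cetn1 to Cetn2 by -0.10 in those sums. The causes were not tested. No result changed sign past its threshold. Depth limits Rpl39 (46 UMI in all) and the macrophage class (21850 UMI in its smallest library). No paired analysis was possible because the library names carry no replicate number.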
